A study of Mus musculus with 7 samples.

Results

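The cytosolic ribosomal protein genes encode the proteins of the 2 ribosomal subunits that read mRNA in the cytosol. The genes described here are 55 of the 56980 genes of the deposited table, chosen from a written list of gene symbols. The list holds 30 proteins of the large 60S subunit, 19 of the small 40S subunit, the 3 proteins of the P stalk and 3 paralogues, which are second copies of a ribosomal protein gene that encode a variant protein. All 55 are annotated as protein-coding. Myocardial RNA came from 7 male wild-type C57BL/6J mice, an inbred laboratory strain, bought at 8 weeks of age and kept for acclimation before surgery. The left coronary artery was ligated in 3 of them (MI mice). The other 4 underwent a sham operation without ligation (sham-operated mice). The tissue of the MI mice was taken 4 days post-MI, and each mouse gave 1 library. The values are FPKM, fragment counts per gene that were divided by gene length and by library size.

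In the cytosolic ribosome the 40S subunit decodes the mRNA and the 60S subunit joins the amino acids, while the P stalk on the 60S subunit recruits the elongation factors. The mRNAs of most ribosomal proteins start with a tract of pyrimidines (a C followed by C and T), which lets the growth signal of the mTOR pathway set their translation together. Heart and skeletal muscle also express Rpl3l, a muscle paralogue of Rpl3. Ribosomal protein mRNAs have been copied back into the genome many times, so that most of these genes have processed pseudogenes of nearly the same sequence.

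Stretches of 30 bases centred on the annotated transcription start are shown because the pyrimidine tract lies there and because most of these genes differed from sham in the same direction in MI replicates 1 and 3. They were taken from the RefSeq start sites on GRCm38.p6, in which 45 of the 55 genes were matched. The capitals mark the letters CTTTCC, and the first 6 sequences are the genes that hold them in this window. The last 2 sequences, from the paralogues Rpl3l and Rpl22l1, hold none of the letters searched and are shown for comparison.
Rpl13a (chr7:45128731-45128760, minus strand): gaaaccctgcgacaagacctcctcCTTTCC
Rpl15 (chr14:18270972-18271001, minus strand): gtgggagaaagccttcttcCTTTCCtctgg
Rpl18 (chr7:45718056-45718085, plus strand): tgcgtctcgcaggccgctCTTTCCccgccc
Rpl28 (chr7:4792950-4792979, plus strand): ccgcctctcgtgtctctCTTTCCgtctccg
Rpl38 (chr11:114668565-114668594, plus strand): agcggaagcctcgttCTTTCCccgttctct
Rps27 (chr3:90213634-90213663, minus strand): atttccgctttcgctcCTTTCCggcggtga
Rpl3l (chr17:24727811-24727840, plus strand): gagtgttctagctctgtcatttgacctctg
Rpl22l1 (chr3:28805493-28805522, plus strand): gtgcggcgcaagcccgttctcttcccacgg

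Searched on both strands, the letters CTTTCC lay in these 30 bases in 6 of the 45 matched genes (13.3%) and in 3.1% of all 27025 genes of the start-site table. In the whole window of 300 bases, from 250 bases before the start, they lay in 22 of the 45 (48.9%) and in 29.3% of all genes. CCGGAAG, the core letters bound by ETS factors, lay in the 300 bases of 16 of the 45 genes (35.6%) and of 9.9% of all genes. The TATA box letters TATAAA lay in 11.1% of the matched genes and in 15.7% of all genes. The E-box CACGTG lay in 13.3% and 8.1%. CTTTCC and CCGGAAG can share the bases CC where they meet. The motifs were chosen with the sequences in view, and a match is a description of letters, not of a bound site.

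The step of 1 fragment in the low values gave depths of about 20000000 to 23500000 fragments in the sham-operated mice and 21800000 to 23600000 in the MI mice. MI replicate 2 stood apart from the other MI mice. Over all genes tested, the Pearson correlation of its log2 values was 0.984 to 0.987 with the sham-operated mice, 0.897 with MI replicate 1 and 0.92 with MI replicate 3. Mitochondrially encoded genes held 55.7% to 57.1% of the summed FPKM in the sham-operated mice, 36.1% in MI replicate 1, 58.5% in MI replicate 2 and 38.2% in MI replicate 3. For the fibroblast genes Postn, Col1a1 and Col3a1 it lay above all sham-operated mice, at 10.8, 40.5 and 67.0 FPKM against at most 4.06, 23.0 and 35.2, and far below the other MI mice. Its place among the MI mice rests on its label, and whether the label or the tissue taken differed was not tested. The limma counts and fold changes of the listed ribosomal protein genes, and the medians and counts of the ribosome-related gene lists, are therefore given without it as well. Single genes of the related lists, and single pseudogenes, are given over all mice only. Since MI replicate 2 was set aside for its values in these same data, counts and p-values without it are descriptive and are not independent tests. All 13 cardiomyocyte markers had an FPKM of at least 1 in each mouse. Of the 11 skeletal muscle markers, 1 had this level in each mouse, and Myh1, Myh2, Myh4 and Myog stayed under 0.1 in each. Acta1, of the same list, ranged from 74.4 to 568.1 FPKM.

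In the sham-operated mice, the ribosomal protein genes spanned a range of 1490-fold, with a median of the gene means of 13.9 FPKM. Of the 55 genes, 6 had a mean over 100 FPKM, 24 lay between 10 and 100, 22 between 1 and 10, and 3 under 1. The highest was Rplp1, a P stalk protein, with 427.6, 450.5, 417.8 and 359.5 FPKM in sham replicates 1 to 4 (mean 413.9 ± 38.7, SD, n = 4). Rps15, a 40S protein, followed with 257.6, 265.5, 242.8 and 251.1 FPKM, and Rpl8, a 60S protein, with 152.1, 159.6, 147.6 and 154.1 FPKM. The ranges of Rplp1 and Rps15 did not overlap, and neither did those of Rps15 and Rpl8. Rpl8, Rplp0, Rpl4 and Rpl3l, at means of 153.4, 150.8, 147 and 144.9 FPKM, had overlapping values from each to the next.

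The lowest levels belonged to Rps27, Rpl9 and Rps23. Rps27, a zinc-binding 40S protein, was listed at 0.247, 0.191, 0.295 and 0.381 FPKM in the sham-operated mice, from 12 to 22 fragments. Rpl9 of the 60S subunit was listed at 0.453, 0.574, 0.636 and 0.463 FPKM. Rps23, at the decoding site of the 40S subunit, was listed at 0.809, 0.784, 0.821 and 0.851 FPKM. These 3 were the genes of the list that did not pass the filter of at least 1 FPKM in 3 or more mice, so 52 were tested. All 52 reached this level in at least 3 sham-operated mice, and none passed through the MI mice alone.

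The subunits contain each protein once, apart from the doubled P1 and P2 proteins, so the low FPKM of single genes was set beside the sequence they share with other genes. Of the 50-base stretches of the reference mRNA of each gene (GENCODE M21), a median of 40% were found in no other annotated gene, with a range of 1.35% for Rps27 to 100% for Rpl3l. The 19 genes with at least 50% of such stretches had a median sham mean of 28.8 FPKM, and the 36 with less had 7.89 FPKM. Across the 55 genes, which are not independent, the Spearman correlation of the unshared share with the sham mean was 0.38, a weak relation. The gene length behind the FPKM values was longer than the reference mRNA for 53 genes, with a median ratio of 3.81. Rescaled to the reference mRNA, the range of the sham means was still 554-fold.

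**Figure D1:**
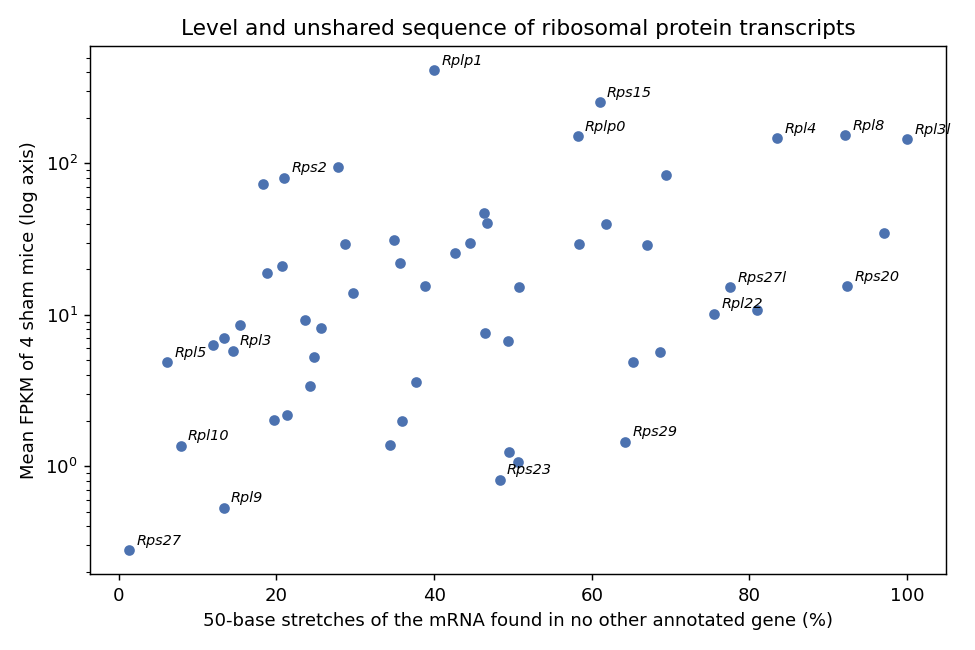
Mean FPKM in the 4 sham-operated mice (vertical log axis) against the share of 50-base stretches of the reference mRNA that occur in no other annotated gene (horizontal axis, percent), 1 point for each of the 55 genes. Rps27 and Rpl9 lie at the lower left and Rpl3l, Rpl8 and Rpl4 at the upper right, while Rplp1 is the highest at 40%.

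The pseudogenes held more of the summed FPKM than the genes. The 294 pseudogenes in the table that are named after ribosomal protein genes summed to 5372 FPKM ± 132 in the sham-operated mice (SD, n = 4). The 55 genes summed to 2192 ± 70.7, and 33 other ribosomal protein genes to 858 ± 36.1. Of the pseudogenes, 155 are named after the 55 genes, so the 294 and the 55 are not like sets. Named pseudogenes existed for 39 of the 55 genes, and 25 genes lay below the sum of their own in the sham-operated mice. Rps27 shared 98.6% of its 50-base stretches with its retrocopy Rps27rt, which is annotated as protein-coding and stood at 176.4, 154.2, 149.3 and 145.1 FPKM in the same mice. Rpl3 shared 81.5% with Rpl3-ps1, at 67.2, 65.9, 70.3 and 69.7 FPKM. The counter and its treatment of fragments with several matches are not given in the sources used here, so the level of a gene with near-identical copies is uncertain, and the values of gene and copy cannot be told apart where their sequence is the same.

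The change after MI was similar for most of these genes and was carried by MI replicates 1 and 3. In MI replicate 1, 53 of the 55 genes lay above the highest sham-operated mouse, and in MI replicate 3, 52 did. The share of all genes that lay above was not counted for single mice. The median of all genes tested was also higher in MI replicates 1 and 3, by 0.36 and 0.30 on the log2 scale. In MI replicate 2, 4 genes lay above the highest sham-operated mouse and 21 below the lowest. The summed FPKM of the 55 genes was 2225, 2268, 2168 and 2105 in the sham-operated mice, and 3971, 2130 and 3684 in MI replicates 1, 2 and 3. Thus MI replicates 1 and 3 were above all sham-operated mice, and MI replicate 2 was among them. The genes' share of all FPKM was 0.464% ± 0.0153 in the sham-operated mice (SD, n = 4) and 0.817% ± 0.323 in the MI mice (SD, n = 3). By mouse it was 1.05%, 0.4484% and 0.9535% for MI replicates 1 to 3, against 0.443% to 0.4795% for sham. This total includes the mitochondrially encoded genes, whose part was smaller in MI replicates 1 and 3. Without them, the share was 1.067% ± 0.0223 for sham (SD, n = 4) and 1.422% ± 0.299 for MI (SD, n = 3). MI replicates 1 to 3 then stood at 1.642%, 1.081% and 1.543%, against 1.034% to 1.083% for sham.

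The median of the 52 tested genes, as the difference of log2(FPKM + 1) from the sham mean, was 0.96 in MI replicate 1, -0.04 in MI replicate 2 and 0.77 in MI replicate 3, and within -0.033 to 0.032 in the sham-operated mice. The median of all 11431 genes tested was 0.36, -0.02 and 0.30 in the same MI mice. The ribosomal protein genes therefore stood 0.60 and 0.48 above the median gene in MI replicates 1 and 3, and 0.02 below it in MI replicate 2. In a bulk sample, fewer cells of a type and less RNA per cell cannot be told apart.

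**Figure D2:**
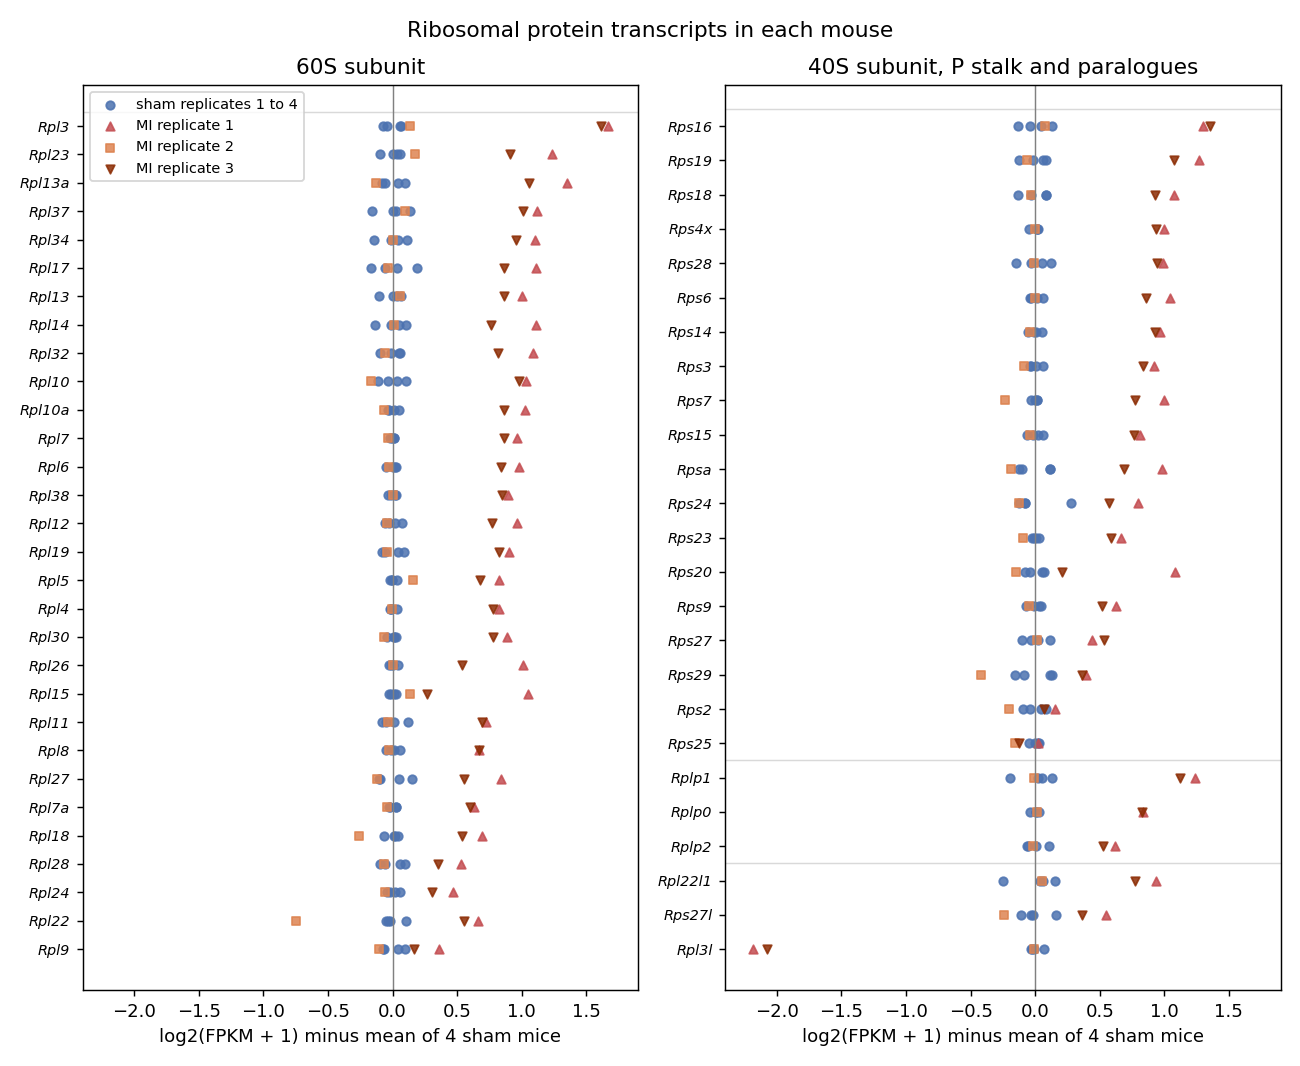
Difference of log2(FPKM + 1) from the mean of the 4 sham-operated mice (horizontal axis) for each of the 55 genes, with 1 point per mouse, separated into 60S genes (left) and 40S, P stalk and paralogue genes (right). MI replicates 1 and 3 lie to the right for most genes and far to the left for Rpl3l, and MI replicate 2 lies among the sham-operated mice for most.

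With limma on log2(FPKM + 1) over all 7 mice, 0 of the 52 tested genes passed a Benjamini-Hochberg adjusted p under 0.05 in either direction, where 2 of all 11431 genes (0.0175%) passed with MI above sham and 1 (0.00875%) with MI below. At an unadjusted p under 0.05, 30 of the 52 (57.7%) were higher, beside 29.5% of all genes, and 1 (Rpl3l) was lower, beside 9.85%. Every MI mouse lay above every sham-operated mouse in 4 of the 52 (7.69%), namely Rpl3, Rpl5, Rpl15 and Rpl23, beside 16.1% of all genes. Every MI mouse lay below in 0 of the 52, beside 9% of all genes. The log2 fold change, MI minus sham, was above 0 for 50 of the 52, beside 8340 of all 11431 genes. After quantile normalization it was above 0 for 45 of 52, and after rescaling to TPM for 53 of 54. As deposited, the 52 had a median of 0.56 and a quartile range of 0.41 to 0.64. The median of all genes was 0.21, so the median of the ribosomal protein genes relative to it was 0.35.

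Without MI replicate 2, 49 of the 52 (94.2%) were higher at an adjusted p under 0.05 (limma), beside 57% of all genes. Rpl3l was the 1 gene that was lower, beside 14.7% of all genes, and Rps2 and Rps25 passed in neither direction. The median log2 fold change was then 0.86, beside 0.33 for all genes. The choice of scaling moved the median of all genes, to 0.41 after rescaling to TPM, to -0.08 after quantile normalization, to 0.05 after scaling by the median log-ratio and to 0.11 without the mitochondrially encoded genes. Relative to the median gene, the median of the ribosomal protein genes was above 0 under each of these 4, by 0.35, 0.39, 0.30 and 0.32. Over all genes, the 3370 higher and 1126 lower at an unadjusted p under 0.05 became 5071 and 621 after TPM (where 14511 genes passed the filter and were tested), 1725 and 2725 after quantile normalization, and 2490 and 1950 after median log-ratio scaling. Of the ribosomal protein genes, the 30 higher at an unadjusted p under 0.05 became 37 of 54 after TPM, beside 34.9% of all genes, 20 of 52 after quantile normalization, beside 15.1%, and 22 of 52 after median log-ratio scaling, beside 21.8%. At an adjusted p under 0.05, the 2 higher and 1 lower over all genes became 8 and 1 after TPM and 7 and 2 after quantile normalization.

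The 60S proteins lie near the peptidyl transferase centre, along the exit tunnel and at the outer face of the large subunit. Of the 30 genes 29 were tested, all had a log2 fold change above 0 (median 0.56, with 27 after quantile normalization and 28 after median log-ratio scaling), and 19 were higher at an unadjusted p under 0.05, beside 29.5% of all genes. After quantile normalization 10 of the 29 were higher, beside 15.1% of all genes. Without MI replicate 2, all 29 were higher at an adjusted p under 0.05 (limma), beside 57% of all genes, with a median of 0.87. Rpl3, which lies near the peptidyl transferase centre, is described with its paralogue below. Rpl23, a protein of the subunit interface, stood at 4.91, 5.13, 5.04 and 4.49 FPKM in the sham-operated mice and at 12.8, 5.65 and 10.1 FPKM in MI replicates 1 to 3. All MI mice were above all sham-operated mice, MI replicate 2 by the least, and the log2 fold change was 0.77 (SE 0.231, adjusted p = 0.108, limma), or 1.07 without MI replicate 2.

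Rpl13a, which also takes part in silencing inflammatory mRNAs as a free protein, stood at 27.2, 26.1, 24.4 and 23.9 FPKM in the sham-operated mice and at 66.3, 23.1 and 53.9 FPKM in the MI mice. MI replicate 2 was below the sham-operated mice here and the other MI mice far above them (log2 fold change 0.76, SE 0.325, adjusted p = 0.127, limma, and 1.21 without MI replicate 2). Rpl5, which with Rpl11 and 5S rRNA binds the p53 regulator Mdm2, stood at 4.85, 5.00, 4.83 and 4.78 FPKM and then at 9.40, 5.54 and 8.37 FPKM. Its groups did not overlap, with a log2 fold change of 0.55, or 0.75 without MI replicate 2. Rpl11 had a log2 fold change of 0.46 (0.71 without MI replicate 2), with MI replicate 2 at 3.50 FPKM, inside the sham range of 3.35 to 4.01. Rpl15, at 5.18 to 5.40 FPKM in the sham-operated mice, differed between the MI mice, with 12.0 in replicate 1, 5.90 in replicate 2 and 6.57 in replicate 3 (log2 fold change 0.48, 0.66 without MI replicate 2 and 0.20 without MI replicate 1).

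The smallest change of a tested 60S gene was that of Rpl22, an RNA-binding protein at the outer face of the subunit. It stood at 9.97, 10.9, 9.87 and 9.76 FPKM in the sham-operated mice and at 16.6, 5.63 and 15.3 FPKM in the MI mice. MI replicates 1 and 3 were above all sham-operated mice and MI replicate 2 was far below them, from 810 fragments against 1238 to 1508. The log2 fold change was 0.16 (SE 0.322, adjusted p = 0.713, limma), was 0.61 without MI replicate 2 (adjusted p = 0.000228), and turned to -0.12 after quantile normalization and -0.04 after median log-ratio scaling.

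The 40S proteins lie along the mRNA channel and near the decoding site. Of 19 genes 17 were tested, 16 had a log2 fold change above 0 (median 0.51, with 14 after quantile normalization and after median log-ratio scaling, each with 1 lower at an unadjusted p under 0.05) and 8 were higher at an unadjusted p under 0.05 (47.1%), beside 29.5% of all genes. Without MI replicate 2, 15 of the 17 were higher at an adjusted p under 0.05 (88.2%, limma), beside 57% of all genes, with a median of 0.88. Rps16 had the largest change of the subunit, with 30.3, 32.3, 28.5 and 26.7 FPKM in the sham-operated mice and 73.7, 31.0 and 76.7 FPKM in the MI mice. Except for MI replicate 2, which was among them, the MI mice were above all sham-operated mice (log2 fold change 0.91, SE 0.304, adjusted p = 0.108, limma, and 1.32 without MI replicate 2). Rps6, the protein phosphorylated by S6 kinase downstream of mTOR, had a log2 fold change of 0.63 (0.95 without MI replicate 2), and Rps19, often mutated in Diamond-Blackfan anaemia, one of 0.76 (1.17). Rpsa, also known as the laminin receptor, stood at 51.0, 51.0, 43.8 and 43.1 FPKM in the sham-operated mice and at 94.1, 41.2 and 76.5 FPKM in the MI mice, with MI replicate 2 the lowest of all 7 (log2 fold change 0.49, SE 0.264, adjusted p = 0.182, limma, and 0.84 without MI replicate 2).

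Rps25 and Rps2 did not pass the test without MI replicate 2 either. Rps25, which is needed for initiation at some viral internal entry sites, stood at 15.8, 15.9, 15.0 and 15.5 FPKM in the sham-operated mice and at 15.8, 13.8 and 14.2 FPKM in the MI mice. MI replicate 1 was inside the sham range and the other 2 were below it (log2 fold change -0.09, SE 0.0875, adjusted p = 0.449, limma, and -0.05 without MI replicate 2), and the sign turned to 0.11 after rescaling to TPM. The log2 fold change was -0.33 after quantile normalization, -0.28 after median log-ratio scaling and -0.21 without mitochondrial genes, each at an unadjusted p under 0.05 and an adjusted p of 0.0971 to 0.11 (limma). Rps2, at the entrance of the mRNA channel, stood at 82.9, 85.4, 78.3 and 75.4 FPKM and then at 89.6, 69.9 and 84.6 FPKM. The groups overlapped, with a log2 fold change of 0.01 (SE 0.12) in all 7 mice and 0.11 without MI replicate 2. The value in all 7 mice was below 0 after quantile normalization, median log-ratio scaling and removal of the mitochondrial genes. Its pseudogene Rps2-ps10, which shares 70.9% of its 50-base stretches, had a log2 fold change of 0.01 as well. Rps29 stood at 1.68, 1.19, 1.302 and 1.65 FPKM and at 2.21, 0.831 and 2.14 FPKM in the MI mice, from 16 to 43 fragments over all mice, so its log2 fold change of 0.11 rests on few fragments. Both MI replicates 1 and 3 were above and MI replicate 2 was below all sham-operated mice, and without MI replicate 2 the change was 0.38 (adjusted p = 0.0131, limma). With all 7 mice it was below 0 after quantile normalization and median log-ratio scaling. Rps20 differed between the MI mice, with 33.8, 13.9 and 18.0 FPKM in replicates 1 to 3 against 14.6 to 16.3 in the sham-operated mice (log2 fold change 0.38, 0.65 without MI replicate 2 and 0.03 without MI replicate 1).

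The untested Rps27, Rpl9 and Rps23 were listed higher in MI replicates 1 and 3 too. Rps27 was at 0.731, 0.290 and 0.850 FPKM, Rpl9 at 0.958, 0.425 and 0.714 FPKM, and Rps23 at 1.87, 0.701 and 1.73 FPKM in MI replicates 1 to 3. For each of them MI replicates 1 and 3 were above all sham-operated mice and MI replicate 2 was not.

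The P stalk is a pentamer of Rplp0 and pairs of Rplp1 and Rplp2. Rplp0 stood at 151.1, 153.8, 151.3 and 146.9 FPKM in the sham-operated mice and at 269.5, 151.9 and 267.9 FPKM in the MI mice. The sham-operated mice differed by little, MI replicate 2 was among them and the other MI mice were close to each other (log2 fold change 0.56, SE 0.211, adjusted p = 0.113, limma). Rplp1, whose sham values are given above, stood at 973.5, 409 and 898.9 FPKM in the MI mice, again with MI replicate 2 inside the sham range (log2 fold change 0.78, SE 0.304, adjusted p = 0.114, limma). Rplp2 stood at 33.6, 31.3, 29.9 and 29.9 FPKM and at 48.2, 30.7 and 45.2 FPKM, the smallest change of the stalk (0.37, SE 0.163, adjusted p = 0.130, limma). Without MI replicate 2, all 3 were higher at an adjusted p under 0.05 (limma), beside 57% of all genes, by 0.83, 1.18 and 0.57.

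The muscle paralogue Rpl3l went the other way from its partner Rpl3. Rpl3l stood at 142.4, 152, 143.6 and 141.7 FPKM in the sham-operated mice and at 31.0, 144.3 and 33.6 FPKM in MI replicates 1 to 3. Both MI replicates 1 and 3 were far below all sham-operated mice, and MI replicate 2 was inside their range. The log2 fold change was -1.42 (SE 0.498, unadjusted p = 0.0231, adjusted p = 0.109, limma over all 7 mice), and without MI replicate 2 it was -2.13 (adjusted p = 1.12e-06). Rpl3 stood at 5.44, 6.04, 5.57 and 6.10 FPKM and then at 20.6, 6.44 and 19.7 FPKM. All MI mice were above all sham-operated mice, MI replicate 2 by little (log2 fold change 1.14, SE 0.357, adjusted p = 0.108, limma), and without MI replicate 2 the change was 1.64 (adjusted p = 4.2e-06).

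The ratio of Rpl3l to Rpl3 in FPKM was 26.2, 25.1, 25.7 and 23.2 in the sham-operated mice and 1.51, 22.4 and 1.70 in MI replicates 1 to 3. All MI mice were below all sham-operated mice, MI replicate 2 by the least. The within-mouse difference of log2(FPKM + 1) was 4.43 ± 0.0663 in the sham-operated mice (SD, n = 4) and 1.86 ± 2.1 in the MI mice (SD, n = 3), a change of -2.56. The exact two-sided permutation test gave p = 0.0571, the smallest that the 35 splits of 7 mice allow, and 0.0857 after Benjamini-Hochberg adjustment over the 3 pairs compared. None of the 50-base stretches of Rpl3l was found in another gene, while Rpl3 had 14.4% unshared. With its named pseudogenes added, Rpl3 amounted to 78.2, 77.5, 80.9 and 83.0 FPKM in the sham-operated mice and 294, 91.2 and 279 FPKM in the MI mice. The ratio of Rpl3l to that sum was 1.82, 1.96, 1.78 and 1.71, and 0.105, 1.58 and 0.120 in the MI mice. The change of the within-mouse difference was then -2.71. With each gene alone and without MI replicate 2 it was -3.77 (exact p = 0.133). The level of the ratio thus depended on whether copies were counted, and its direction did not.

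**Figure D3:**
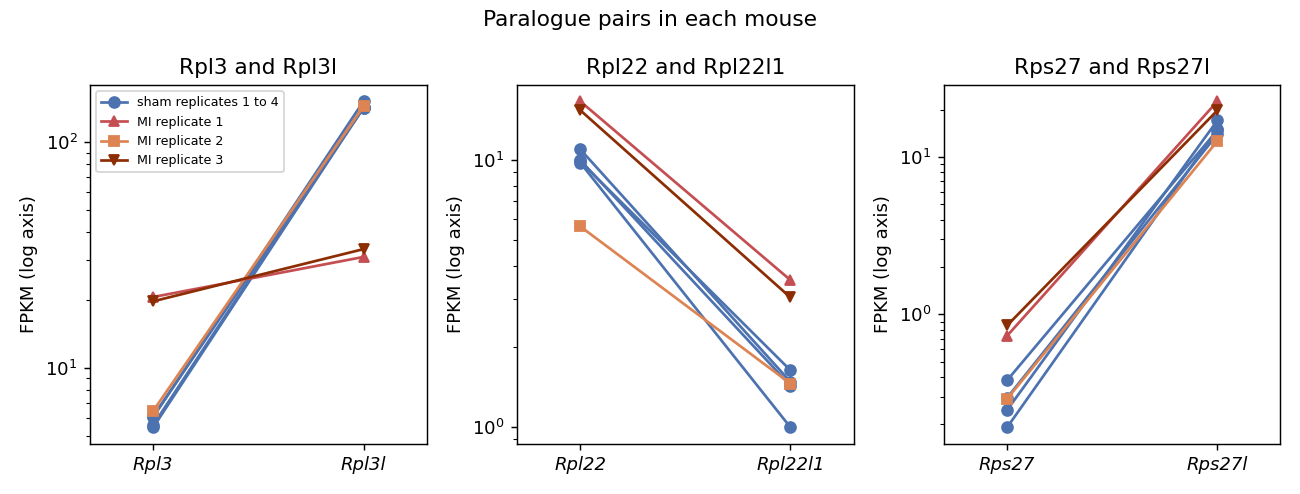
FPKM (vertical log axis) of the 3 pairs Rpl3 and Rpl3l, Rpl22 and Rpl22l1, and Rps27 and Rps27l, with a line joining the 2 genes of each mouse. For Rpl3 and Rpl3l, the lines of MI replicates 1 and 3 are nearly flat (ratios 1.51 and 1.70), and those of MI replicate 2 and of the sham-operated mice are steep (22.4 to 26.2).

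Rpl22 represses its paralogue Rpl22l1 in other cells. Rpl22l1 stood at 1.43, 1.48, 1.63 and 0.997 FPKM in the sham-operated mice and at 3.54, 1.45 and 3.05 FPKM in the MI mice, with MI replicate 2 inside the sham range. Its log2 fold change was 0.59 (SE 0.219, adjusted p = 0.112, limma), or 0.86 without MI replicate 2. The ratio of Rpl22l1 to Rpl22 was 0.143, 0.135, 0.165 and 0.102 in the sham-operated mice and 0.214, 0.258 and 0.199 in the MI mice. All MI mice were above all sham-operated mice, and MI replicate 2, where Rpl22 was low, was the highest. The within-mouse difference changed by 0.43 (exact two-sided permutation p = 0.0571, adjusted 0.0857), by 0.25 without MI replicate 2 (exact p = 0.133), and by 0.28 (exact p = 0.229) when the named pseudogenes and the gene sharing most sequence were added to each.

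Rps27l, a paralogue of Rps27 known as a p53 target, stood at 17.1, 15.0, 13.96 and 14.8 FPKM in the sham-operated mice and at 22.6, 12.6 and 19.8 FPKM in the MI mice. MI replicates 1 and 3 were above and MI replicate 2 below all sham-operated mice (log2 fold change 0.22, SE 0.191, adjusted p = 0.375, limma, and 0.45 without MI replicate 2), and the sign turned to -0.01 after quantile normalization. The within-mouse difference between Rps27l and Rps27 changed by -0.11 (exact two-sided permutation p = 0.343), and by -0.03 without MI replicate 2 (exact p = 0.667). With Rps27rt counted to Rps27, the difference changed by -0.46 (exact p = 0.0571).

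The pseudogenes and the remaining ribosomal protein genes had medians close to that of the 55 genes. Of the 294 named pseudogenes 96 passed the filter, with a median log2 fold change of 0.58, 57 higher at an unadjusted p under 0.05 (59.4%), beside 29.5% of all genes, and 0 lower. Their median was 0.88 without MI replicate 2, when 88 of the 96 were higher at an adjusted p under 0.05 (limma), beside 57% of all genes. Rpl3-ps1 stood at 252.7, 77.8 and 239.4 FPKM in the MI mice, above all sham-operated mice. Of 33 other ribosomal protein genes 28 passed the filter, with a median of 0.57, 15 higher (53.6%) and 0 lower at an unadjusted p under 0.05. The 15 became 9 after quantile normalization, beside 15.1% of all genes. Leaving out MI replicate 2, the median was 0.88 and 27 of the 28 were higher at an adjusted p under 0.05 (limma). Rpl39, at the exit tunnel, had a log2 fold change of 0.87, with 6.92 to 9.55 FPKM in the sham-operated mice and 24.4, 7.95 and 20.7 FPKM in the MI mice. Rpl37a followed, with a log2 fold change of 0.70.

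Translation factors drive initiation, elongation and termination on the ribosome. All 37 were tested, with a median log2 fold change of 0.27 (0.06 after quantile normalization), 13 higher (35.1%, beside 29.5% of all genes) and 0 lower at an unadjusted p under 0.05 and 0 at an adjusted p under 0.05 (limma). These counts were 6 higher and 5 lower after quantile normalization, beside 15.1% and 23.8% of all genes. Leaving out MI replicate 2, the median was 0.39, with 25 (67.6%) passing the adjusted threshold with MI above, beside 57% of all genes, and 2 with MI below. Eef1a1, the elongation factor that brings aminoacyl-tRNA to the ribosome, stood at 92.3, 85.5, 91.8 and 92.0 FPKM in the sham-operated mice and at 454.2, 112.2 and 416 FPKM in the MI mice, so that all MI mice were above (log2 fold change 1.61). Its muscle and nerve isoform Eef1a2 stood at 534.8, 555.7, 502.9 and 534.7 FPKM and at 336.1, 556 and 374.5 FPKM, with MI replicates 1 and 3 below all sham-operated mice (log2 fold change -0.37). Eef1a1 and Eef1a2 thus differed in sign as Rpl3 and Rpl3l did, and their difference was not tested. Pabpc1, which binds the poly(A) tail, and Rack1, a 40S-bound scaffold, had log2 fold changes of 1.11 and 0.76.

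The 46 ribosome biogenesis genes, which process rRNA and assemble subunits, had a median log2 fold change of 0.21, with 8 higher (17.4%, below the 29.5% of all genes) and 0 lower at an unadjusted p under 0.05. These counts became 1 and 12 after quantile normalization (beside 15.1% and 23.8% of all genes) and 4 and 5 after median log-ratio scaling (beside 21.8% and 17.1%), and without MI replicate 2, at an adjusted p under 0.05 (limma), 31 (67.4%, beside 57% of all genes) and 2 (beside 14.7%), with a median of 0.36 beside 0.33 for all genes. The nucleolar chaperone Npm1 (0.73), the 60S factor Eif6 (0.55) and the polymerase subunit Polr1c (0.52) led them. The median turned to -0.09 after quantile normalization. Of 23 genes for the growth control of ribosomes 20 were tested (median 0.17, but -0.11 after quantile normalization and -0.01 after median log-ratio scaling, 3 higher (15%, beside 29.5% of all genes) and 0 lower at an unadjusted p under 0.05). Their median was 0.29 without MI replicate 2, beside 0.33 for all genes, with 11 (55%) passing the adjusted threshold of limma with MI above, beside 57% of all genes, and 2 with MI below, beside 14.7%. Among these, the cell cycle inhibitor Cdkn1a (0.90), the stress gene Sesn2 (0.75) and Trp53 (0.54) had the largest changes. Mtor, the growth kinase, had -0.21 and Larp1, which binds the pyrimidine tract, 0.09. Myc did not pass the filter.

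The mitochondrial ribosome, which translates the mRNAs of the mitochondrial genome, went the other way. All 78 of its nuclear genes were tested, with a median log2 fold change of -0.22, 0 higher and 32 lower at an unadjusted p under 0.05, beside 9.85% of all genes lower, and 0 at an adjusted p under 0.05 (limma). Every MI mouse was below every sham-operated mouse in 38 of the 78, beside 9% of all genes. Mrpl42 stood at 35.1, 32.2, 36.2 and 38.5 FPKM in the sham-operated mice and at 19.6, 29.2 and 21.7 FPKM in the MI mice, so that MI replicate 2 was the closest to the sham level but below it (log2 fold change -0.59). Mrpl28 (-0.76) and Mrps35 (-0.59) were alike in this. The median of the list stayed below 0 under the 4 other scalings (-0.46 to -0.03), but the 32 lower became 10, with 1 higher and 34 of the 78 above 0, after TPM (beside 4.28% of all genes lower) and 57 after quantile normalization (beside 23.8%), and relative to the median gene it was -0.43. Without MI replicate 2, the adjusted p of limma passed 0.05 for 3 of the 78 with MI above, beside 57% of all genes, and for 44 with MI below, beside 14.7%, and the median was -0.23.

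**Figure D4:**
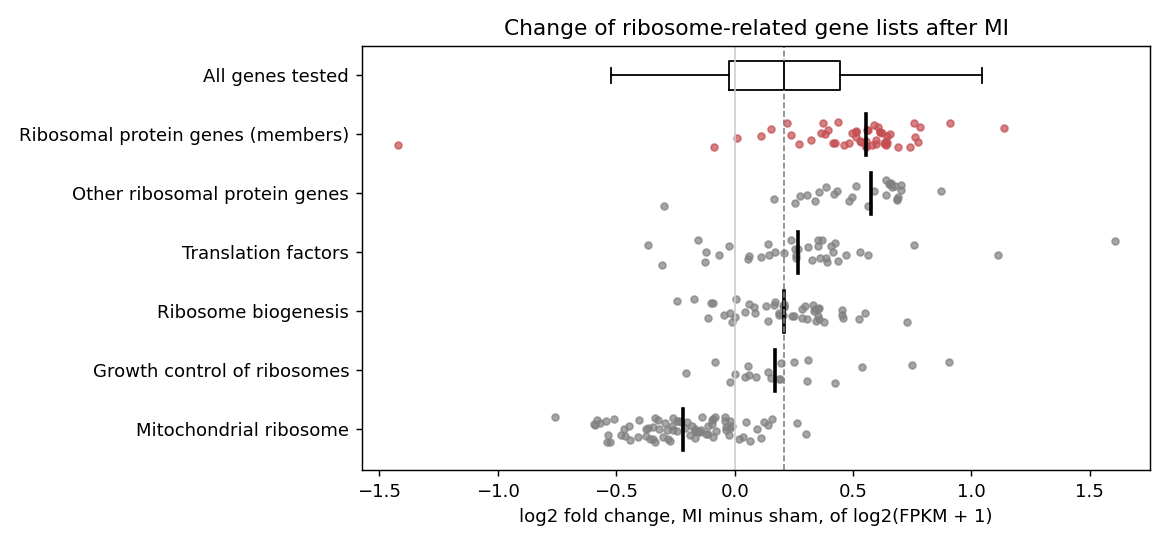
Log2 fold change of log2(FPKM + 1), MI minus sham over all 7 mice (horizontal axis), for the ribosomal protein genes (red) and related lists (grey), 1 point per tested gene with a bar at the median, beside a box of all genes tested (quartiles, with whiskers from the 5th to the 95th percentile). The dashed line marks the median of all genes at 0.21, with the ribosomal protein genes centred at 0.56 and the mitochondrial ribosome at -0.22.

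Markers of other cells moved in the same mice. The summed FPKM of 11 fibroblast markers was 179.8 to 204.8 in the sham-operated mice and 2878, 314 and 2272 in MI replicates 1 to 3. That of 16 leukocyte markers was 216.5 to 273.6, and 1460, 260 and 1238. All 11 fibroblast markers were at an FPKM of at least 1 in each mouse, and 9 of the 16 leukocyte markers were. Without MI replicate 2, the median log2 fold changes of the fibroblast, leukocyte and cardiomyocyte markers were 3.06, 2.21 and -0.77, beside 2.23, 1.53 and -0.53 in all 7 mice. The fibroblast genes Postn, Col1a1 and Col3a1 and the myeloid gene Lyz2 had log2 fold changes of 4.10, 3.69, 3.37 and 1.75. The sum of 13 cardiomyocyte markers was 17140 to 18310 in the sham-operated mice and 11400, 17050 and 12320 in the MI mice, with 2 of the 13 above 0 in log2 fold change. Tnni3 had -0.93, and Myh7, the slow myosin heavy chain, 0.98. The 8 endothelial markers summed to 136.4 to 155.9, and 171.7, 128.8 and 183.9. Those of red blood cells (6 genes) summed to 370.8 to 773.8, and 2390, 590.7 and 1014, those of smooth muscle and pericytes (7 genes) to 218.5 to 259.6, and 348, 222.2 and 385.8, and those of skeletal muscle (11 genes, Acta1 almost alone) to 75.4 to 342.9, and 491, 183.9 and 572. The fibroblast and leukocyte sums were thus highest, and the cardiomyocyte sum lowest, in MI replicates 1 and 3, in which the ribosomal protein genes were high as well. The part of the cell makeup in the change of the ribosomal protein genes was not tested.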

How the data were processed

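The authors deposited FPKM values (1 table, 56980 genes, 1 column per mouse, 0 columns unused). Per the labels, the submitters' processing notes name CASAVA 1.8, HISAT2, SAMtools 1.3.1, edgeR and the build mm10. The annotation, counter and strand setting are not given in the sources used here. Whether same-group mice were operated on together is not given either. Identifiers were joined to GENCODE M21 (GRCm38), which held 52073 (91.4%). Values were analysed as log2(FPKM + 1), which understates the change of low genes. Genes with FPKM of at least 1 in 3 or more mice were fitted with limma 3.58.1 (R 4.3.3, eBayes with trend), with Benjamini-Hochberg adjustment (threshold 0.05). The study's methods give general group tests but do not say which was used for this table, and the role of edgeR is not given. Paralogue differences were tested with SciPy 1.17.1. On simulated data for MI against sham with 200 of 11431 genes changed by 1 (log2), limma called 181 of these and 18 others. The simulated MI mice had the spread of the sham-operated mice and no split among them. These counts therefore check the code and do not measure the power in the real data. The members, gene lists and naming rule (paralogue pairs, stalk, Rpsa, extremes of level and change) were chosen with earlier results of these data known. Searches for shared stretches, copies and motifs were added after seeing the data. Alternatives were other pseudocounts, filters, scalings, weights, a block and left-out mice.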

Additional observations from a re-analysis of the deposited data

Results flagged for a closer look

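In 3 genes, 1 sham-operated mouse lay apart from the other 3, with its gap to the nearest of them, as a share of the range of the 4 mice, above Dixon's critical value for 4 mice. For Rps24 the share was 0.908, with 13.1 FPKM in sham replicate 4 against 9.70 to 10.01 in the others. For Rps4x it was 0.888, with 92.4 FPKM in sham replicate 4 against 96.1 to 96.5. For Rpl4 it was 0.846, with 150.6 FPKM in sham replicate 3 against 145.3 to 146.1. Of 58 sets of sham values tested in this way, 2.9 would be expected to pass by chance.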

How the results depend on the processing

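Genes higher in the MI mice at an adjusted p under 0.05 (2 in all 7 mice, limma) numbered 5 with a pseudocount of 0.1, 20 without the filter, 0 with a filter on the mean (4740 genes at an unadjusted p under 0.05), 8 after TPM, 7 after quantile normalization, 10 after median log-ratio scaling, 10 without mitochondrial genes, and 0 to 6512 with 1 mouse left out, the largest count without MI replicate 2. Genes lower (1) numbered 0 with the filter on the mean, 2, 4 and 4 after quantile normalization, median log-ratio scaling and without mitochondrial genes, and 0 to 1683 with 1 mouse left out. Sample weights gave 7636 higher and 2316 lower, with 49 and 2 of the ribosomal protein genes at both the adjusted and the unadjusted threshold. Those weights did not converge and put a weight of 437 on MI replicate 3 and 0.0217 on MI replicate 2.

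With 1 mouse left out, 0 to 49 ribosomal protein genes passed the adjusted threshold with MI above and 0 to 1 with MI below, and 2 to 49 higher and 0 to 1 lower at an unadjusted p under 0.05. Of the counts higher at an unadjusted p, 49 came without MI replicate 2, 2 without MI replicate 1, 3 without MI replicate 3, and 5 to 8 without a sham-operated mouse. At an unadjusted p, 2 were lower after quantile normalization, after median log-ratio scaling and without mitochondrial genes. Their median log2 fold change stayed between 0.32 and 0.86, and relative to all genes between 0.24 and 0.53, over all 17 alternatives.

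The sign of a few genes turned, and the cause was not tested. Rpl22 gave -0.12 after quantile normalization, -0.042 after median log-ratio scaling and -0.096 and -0.044 without MI replicates 1 and 3, against 0.61 without MI replicate 2. Rps2 gave -0.17, -0.20 and -0.12 after quantile normalization, median log-ratio scaling and without mitochondrial genes, and -0.064 to -0.0041 without 1 of 4 mice. Rps29 gave -0.20, -0.029, and -0.028 and -0.012 without MI replicates 1 and 3, against 0.38 without MI replicate 2. Rpl28 gave -0.038 and Rps27l -0.01 after quantile normalization, and Rps25 gave 0.11 after TPM. The changes of Rpl3l minus Rpl3 (-3.77 to -1.91), Rpl22l1 minus Rpl22 (0.25 to 0.68) and Rps27l minus Rps27 (-0.63 to -0.032) kept their direction under all 14 alternatives.

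With the replicate number as a block, 0 genes passed the adjusted threshold with MI above and 0 with MI below (limma, 2332 at an unadjusted p under 0.05), 5 ribosomal protein genes were higher at an unadjusted p, and Rps2 gave -0.022. The labels do not say that the numbers pair the mice, and same-numbered mice did not deviate together (correlations 0.074, -0.016 and -0.08).

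With 3 MI mice of which 1 stood with the sham-operated mice, an adjusted p under 0.05 in all 7 mice was reached by 3 genes. The values of Rps27, Rps23 and Rps29 rest on few fragments, and each of these genes shares sequence with other genes. For genes with near-identical copies, the level is uncertain.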
